A study of Mus musculus with 8 samples.

Results

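The change in mRNA that pre-B cells undergo when interleukin-7 (IL-7) is removed was compared between cells that carry a miR-125b vector and cells that carry a control vector. The quantity is a difference of differences: the response of the miR-125b cells (without minus with IL-7) minus the response of the control cells, gene by gene. All 8 of the 8 arrays in the series enter it. The cells were the mouse pre-B line 1676, which lacks the adaptor proteins SLP-65 and LAT (SLP-65-/- LAT-/-) in all 4 groups. They were infected with a retroviral control vector or with a vector encoding hsa-miR-125b-1, selected with puromycin at 1 µg/ml, and kept in excess IL-7 or for 24 h without it. Each of the 4 groups had 2 arrays, one from each of 2 repetitions made with independently generated clones, so every p-value measures the spread between 2 clones of a line.

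IL-7 is the growth factor of early B-cell precursors. Its receptor signals through JAK kinases and STAT5, keeps pre-B cells cycling and holds back differentiation, and its loss lets such cells rearrange light chain genes and take on features of more mature B cells. miR-125b is a microRNA that pairs through its seed with messages and lowers them; it is expressed in early blood progenitors and overexpressed in some leukaemias. The mature microRNA is given here because its seed defines what the vector can target; capitals mark bases 2 to 8, and the sequence is RefSeq's for mouse Mir125b-1 (GRCm38.p6, chr9:41581940-41581961, plus strand).

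miR-125b-5p: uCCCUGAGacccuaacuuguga

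Levels are log2 spot signals relative to each array's 75th percentile, so that 1 unit is a 2-fold difference and 0 is the level of that percentile. Between 47.7% and 54.8% of the probes on an array were well above background, and no probe was saturated. Replicate arrays correlated at 0.994 to 0.996. The pre-B markers Cd79a, Cd79b, Vpreb1, Igll1, Pax5 and Ebf1 were well above background on all 8 arrays, while Cd3d, Col1a1 and Pdgfra were so on none. Itgam, Csf1r, Cd3e and Sdc1 were above background on all 8 arrays, and Cd8a on the 4 arrays without IL-7 only. In bulk RNA such as this, fewer cells of a type and less RNA per cell cannot be told apart.

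All arrays with IL-7 lay on one slide and all arrays without it on another. Within either cell kind, withdrawal and slide cannot be told apart, whereas an offset that is the same for all arrays of a slide cancels in the difference between responses. A slide that stretches or compresses folds does not cancel: the slope of signal on spike-in amount was 1.01 to 1.04 on the slide with IL-7 and 1.05 to 1.06 on the other. The control and miR-125b arrays also sat in different columns of both slides, so vector and column position cannot be told apart.

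No gene differed in its withdrawal response between the 2 cell kinds at an adjusted p under 0.05 (limma with Benjamini-Hochberg adjustment; 0 of 20677 genes, 0%). By that rule no response was blunted (smaller in miR-125b cells) and none was enhanced (larger). At an unadjusted p under 0.05 there were 1218 genes (5.89%), of which 696 (3.37%) were higher and 522 (2.52%) lower in the miR-125b response. The fit with a mean-variance trend called 1 gene and that with a robust prior 0. Normexp background correction gave 6 calls, leaving out miR-125b without IL-7 replicate 1 gave 3 and leaving out miR-125b with IL-7 replicate 1 gave 1. The 95% interval of the difference lay within 1 unit of 0 for 15548 genes (75.2%), with a median half-width of 0.42. Among genes with a mean response of at least 1 unit the share was lower. It was 566 of 1939 rising genes (29.2%) and 734 of 1354 falling genes (54.2%), with median half-widths of 1.02 and 0.65. For most of the rising genes a difference of 1 unit or more was thus not excluded.

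The responses themselves were broad and ran alike in both cell kinds. In control cells 11205 genes (54.2%) changed, 4139 up (20%) and 7066 down (34.2%), and in miR-125b cells 10840 (52.4%) changed, 4199 up (20.3%) and 6641 down (32.1%). The control count was 7243 without control without IL-7 replicate 1, and the miR-125b count 7170 without miR-125b without IL-7 replicate 1. In both cell kinds, 9160 genes (44.3%) changed in the same direction and 15 (0.0725%) in opposite directions. The 2 responses, which share no array, correlated across genes at 0.889 (Pearson) and 0.895 (Spearman). That correlation describes genes, which are not independent replicates, and both responses contain the same slide difference.

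**Figure D1:**
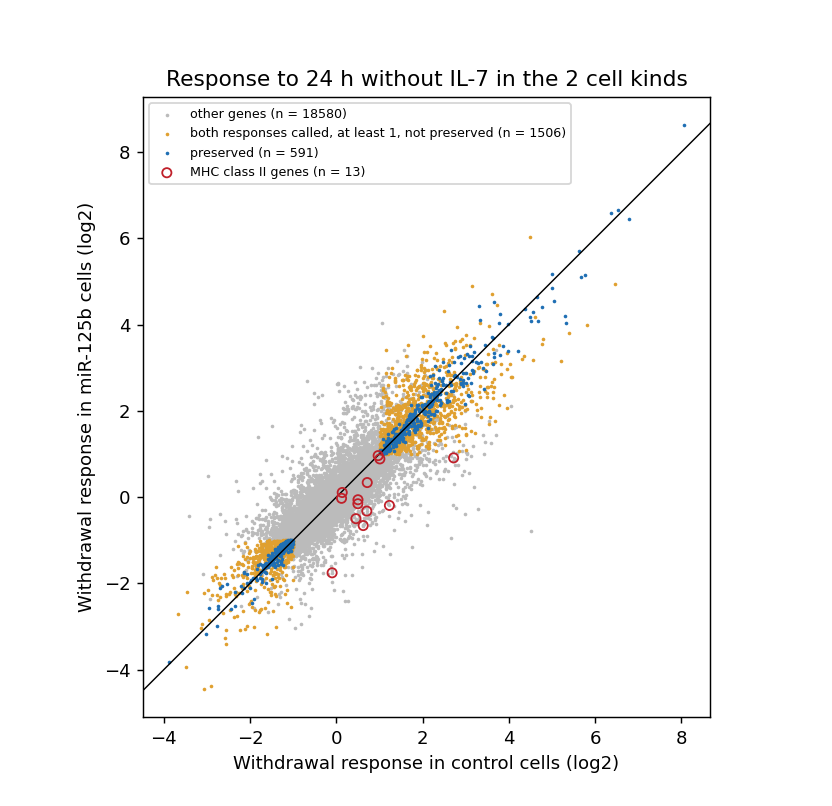
Withdrawal response of each of the 20677 genes (log2, without minus with IL-7) in control cells (x axis) and in miR-125b cells (y axis), each the mean of 2 arrays minus the mean of 2 arrays, with the line of equal response. The 591 preserved genes lie along the line by their definition, and all 13 MHC class II genes (red rings) lie below it.

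The overall size of the response differed between the cell kinds by less than its range over the arrays. Among the 1939 genes whose mean response over both cell kinds was 1 unit or more upwards, the median response was 1.59 in control and 1.62 in miR-125b cells, and the median difference was 0.01. Over the 16 ways to take 1 array from each group that median ran from -0.25 to 0.25. Of these genes, 157 had a response at least 1 unit smaller and 167 one at least 1 unit larger in miR-125b cells. Leaving out control with IL-7 replicate 2 gave -0.18 in place of 0.01. Among the 1354 genes with a mean response of 1 unit or more downwards, the median response was -1.31 in control and -1.17 in miR-125b cells, a difference of 0.13 with a range from -0.13 to 0.40 over the array choices. The median over all genes was 0.02. Of the 1939 rising genes 812, and of the 1354 falling genes 912, had a probe above background on all 8 arrays. In the others a probe was dim on at least 1 array, which can limit the size of a measured response.

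A response was counted as preserved where both cell kinds changed in the same direction by at least 1 unit each and the 95% interval of their difference stayed within 0.5 times the mean response. This held for 591 genes (2.86%), 338 of them rising (1.63%) and 253 falling (1.22%). They are 28.2% of the 2097 genes with both responses called at 1 unit or more; the other 1506 were neither called in the difference nor preserved. The probes of 482 preserved genes were above background on all 8 arrays. The count was 382 without control without IL-7 replicate 1, 391 without replicate 2 of that group and 392 without miR-125b without IL-7 replicate 1.

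Among preserved rises were single regulators of survival and growth arrest. Of 12 measured pro-apoptotic BCL2 family genes, 1 had a preserved rise, against 1.63% of all genes. Bmf, a pro-apoptotic BH3-only protein, read 1.50 and 1.90 in control cells with IL-7, 4.23 and 4.26 in control cells without it, 1.39 and 0.93 in miR-125b cells with IL-7 and 3.68 and 3.49 in miR-125b cells without it. In both cell kinds the arrays without IL-7 were above those with it. It rose by 2.55 in control and by 2.42 in miR-125b cells, a difference of -0.13 (95% interval -0.81 to 0.56). Trp53inp1, a stress protein induced by p53 and a published miR-125b target, read 4.15 and 4.27 in control cells with IL-7 and 5.75 and 5.73 without, against 2.71 and 2.53 in miR-125b cells with IL-7 and 4.03 and 4.05 without. All miR-125b arrays were below all control arrays of the same IL-7 state, yet the step was 1.53 and 1.42, a difference of -0.11 (-0.42 to 0.21). Btg1, an antiproliferative factor under FOXO control, rose by 1.76 in both, with a difference of 0.00 (-0.54 to 0.54). Ddit4, an inhibitor of mTORC1, rose by 1.47 and 1.39, and Btg2, another antiproliferative gene, by 1.16 and 1.24.

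Single genes of B-cell maturation were also among the preserved rises. Of 33 measured late pre-B and immature B genes, 2 had a preserved rise, against 1.63% of all genes. Another 5 changed by at least 1 unit in both cell kinds but were not preserved. In the list of pre-BCR and early B programme genes, 2 of 24 had a preserved rise. The genes named here are thus not all from the first list. Irf4, a transcription factor that acts in light chain rearrangement, read 3.08 and 3.26 in control cells with IL-7 and 4.69 and 4.70 without, against 3.46 and 3.17 and then 4.71 and 4.73 in miR-125b cells. The 4 arrays without IL-7 lay between 4.69 and 4.73, and the difference of the response was -0.13 (-0.54 to 0.29). Bach2, a repressor of plasma cell fate, rose by 1.26 in control and 1.33 in miR-125b cells. The kinase gene Blk rose by 2.62 and 2.67, from a probe above background on 7 of 8 arrays. Ccr7, a chemokine receptor, rose by 2.43 and 2.18.

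**Figure D2:**
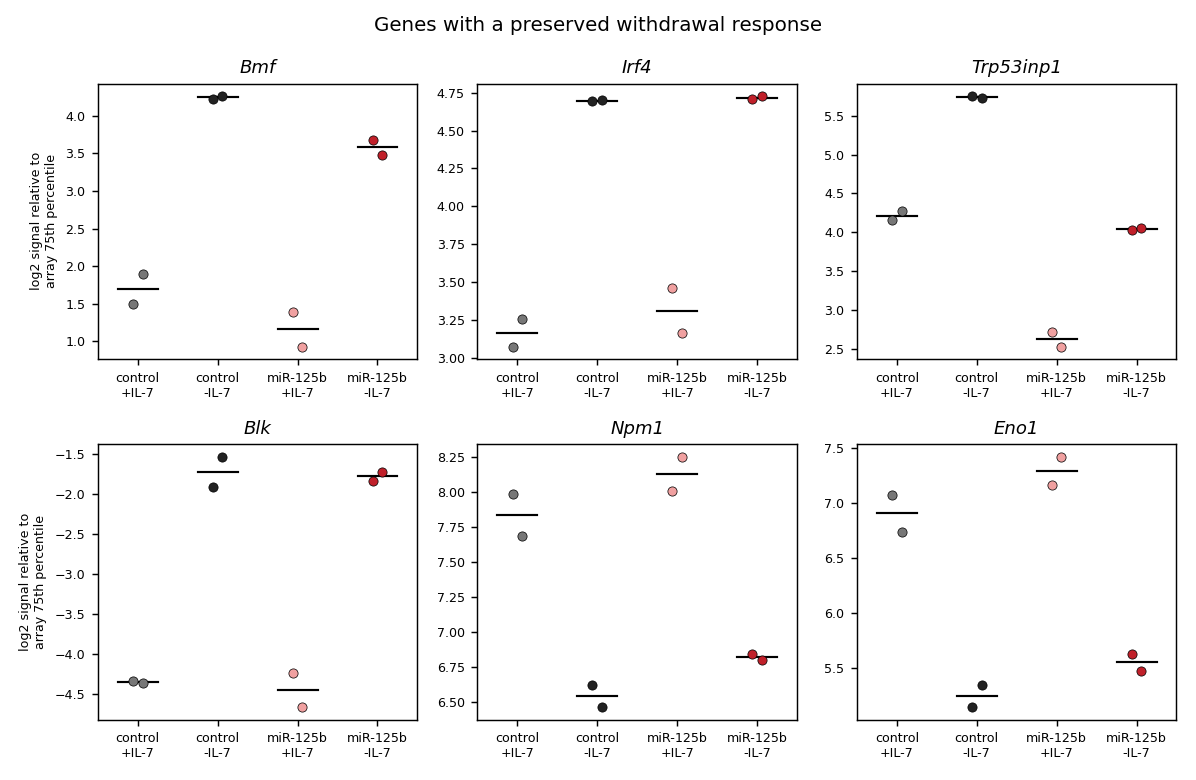
Level of 6 genes with a preserved response on each array (points; log2 signal relative to the array's 75th percentile; each panel has its own scale), with the mean of the 2 arrays of a group as a bar. Bmf, Irf4, Trp53inp1 and Blk rose and Npm1 and Eno1 fell by nearly the same step in both cell kinds, although Trp53inp1 was lower in miR-125b cells throughout.

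The highest preserved rises among genes with a symbol in RefSeq's gene table and measured on all arrays were those of Ifi214 (3.99 in control and 4.02 in miR-125b cells), 6330407A03Rik (3.08 and 3.28), Cyp2j9 (3.16 and 2.93), Pnma2 (3.17 and 2.88) and Pld4 (2.94 and 2.88). Atrnl1, Isoc2b, Tmtc1, Ermn and Pcdh19 followed, with control rises of 2.66 to 3.07. Isoc2b shows that preserved does not mean equal: it rose by 3.07 and 2.35, and its difference of -0.72 had an interval of -1.13 to -0.31, which leaves out 0 but stays within 0.5 times the mean response. The deepest preserved falls among such genes were those of Insm1 (-3.89 and -3.83), a zinc-finger repressor, Tmem98 (-2.95 and -2.58) and Tmem119 (-2.74 and -2.59). Ifit1bl1, Lrp11, Map6d1, Tspan4, Pebp1, Efhd1 and Mif made up the rest of the lowest 10, with control falls of -2.18 to -1.84.

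Many growth and metabolism genes fell in both cell kinds. Of 40 measured ribosome biogenesis genes, 39 fell in both, against 28.1% of all genes, and 6 of them were preserved: Ppan, Nop56, Nop16, Wdr12, Ddx21 and Npm1, against 1.22% preserved falls among all genes. That count of 6 ranged from 1 to 12 with 1 array left out: 12 without miR-125b with IL-7 replicate 1, 3 after omitting either array of control cells with IL-7, and 1 or 2 after omitting any of the other 5. No member reached an unadjusted p under 0.05 for the difference (0 of 40 against 5.89% of all genes), and the median fall was -1.13 in control and -0.94 in miR-125b cells. The difference was above 0 for 35 of the 40, against 11292 of all 20677 genes. Its median was 0.13, with a range of -0.27 to 0.60 over the array choices. With quantile normalization, the deposited table, a mean-variance trend or the filter that needs all 8 arrays, 2 members were higher at an unadjusted p under 0.05. Npm1, the nucleolar chaperone nucleophosmin, read 7.99 and 7.69 in control cells with IL-7 and 6.62 and 6.46 without, and 8.01 and 8.25 and then 6.84 and 6.80 in miR-125b cells. The groups with and without IL-7 did not overlap in either cell kind, and the steps were -1.29 and -1.31. Among 5 probes for Npm1 the difference ran from -0.01 to 0.43.

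In other lists of this kind, 78 of 81 cytosolic ribosomal protein genes, 70 of 78 oxidative phosphorylation genes, 64 of 77 mitochondrial ribosomal protein genes, 38 of 46 proteasome genes and 27 of 35 DNA replication genes fell in both cell kinds, against 28.1% of all genes. Quantile normalization, like the deposited table, left fewer: 4 of 81, 34 of 78, 47 of 77, 19 of 46 and 13 of 35. The median steps of the cytosolic ribosomal protein genes were -0.70 in control and -0.68 in miR-125b cells, and -0.0027 and -0.02 with quantile normalization. Without control without IL-7 replicate 1, 42 of 77 mitochondrial ribosomal protein genes fell in both. Serine, folate and nucleotide synthesis had 21 of 29 falling in both, ATF4 targets and tRNA synthetases 8 of 29, and mitosis and kinetochore genes 7 of 40. Glycolysis had 13 of 19 falling in both, 3 of them preserved, against 28.1% and 1.22% of all genes. With 1 array left out its preserved count went as low as 0 (without control without IL-7 replicate 1). Eno1, the glycolytic enzyme enolase, read 7.08 and 6.73 in control cells with IL-7 and 5.14 and 5.35 without, and 7.16 and 7.42 and then 5.62 and 5.47 in miR-125b cells. It fell by 1.66 and 1.74 without overlap, a difference of -0.08 (-0.64 to 0.47). Pkm, pyruvate kinase, fell by 1.09 and 1.15, and Ldha, lactate dehydrogenase, by 1.24 and 1.21. Gapdh, another glycolytic enzyme gene, fell by 1.05 in control and by 0.66 in miR-125b cells. Its difference of 0.40 was not called (limma unadjusted p = 0.0404, adjusted p = 0.813), and its 8 probes ran from 0.02 to 0.40. With quantile normalization 10 of the 19 glycolysis genes fell in both and 1 was preserved. In cholesterol synthesis 19 of 24 fell in both, with Fdps (-1.49 and -1.29) and Mvd (-1.25 and -1.23) preserved. Quantile normalization left 13 of these 24 falling in both and 1 preserved. Median differences of these lists lay between -0.06 and 0.15.

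Myc, the transcription factor that drives many of those genes, was in between. It read 3.42 and 2.87 in control cells with IL-7 and 0.96 and 1.1 without, and 3.67 and 4.21 and then 2.35 and 2.63 in miR-125b cells. The fall was -2.11 in control and -1.45 in miR-125b cells. Its difference of 0.67 ± 0.36 (SE) was not called (limma unadjusted p = 0.112, adjusted p = 0.938), and its 95% interval of -0.21 to 1.54 includes 0.

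The MHC class II genes had the lowest median difference of all lists drawn in the plot of list medians. These genes encode the chains that present peptides to helper T cells, their chaperones and their regulators, and their expression rises as B-cell precursors mature. Of 14 listed genes 13 were measured, and all 13 had a difference below 0. Their median was -0.65, from a median response of 0.62 in control cells and -0.06 in miR-125b cells, and over the 16 array choices it stayed between -0.99 and -0.34. In control cells 7 of the 13 rose, against 20% of all genes, and none fell. In miR-125b cells 2 rose, against 20.3%, and 3 fell, against 32.1%. Of the 13, 6 were lower at an unadjusted p under 0.05, against 2.52% of all genes, and 0 were called. For 9 of them the array-pair responses of the 2 cell kinds did not overlap, against 17.8% of all genes. Scaling to the array median left 11 of 13 below 0 (median -0.57). It lowered both responses, to medians of 0.29 in control and -0.31 in miR-125b cells, so which members rose or fell depends on the scaling. The list was chosen with earlier results of these data known, so its counts are a description.

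**Figure D3:**
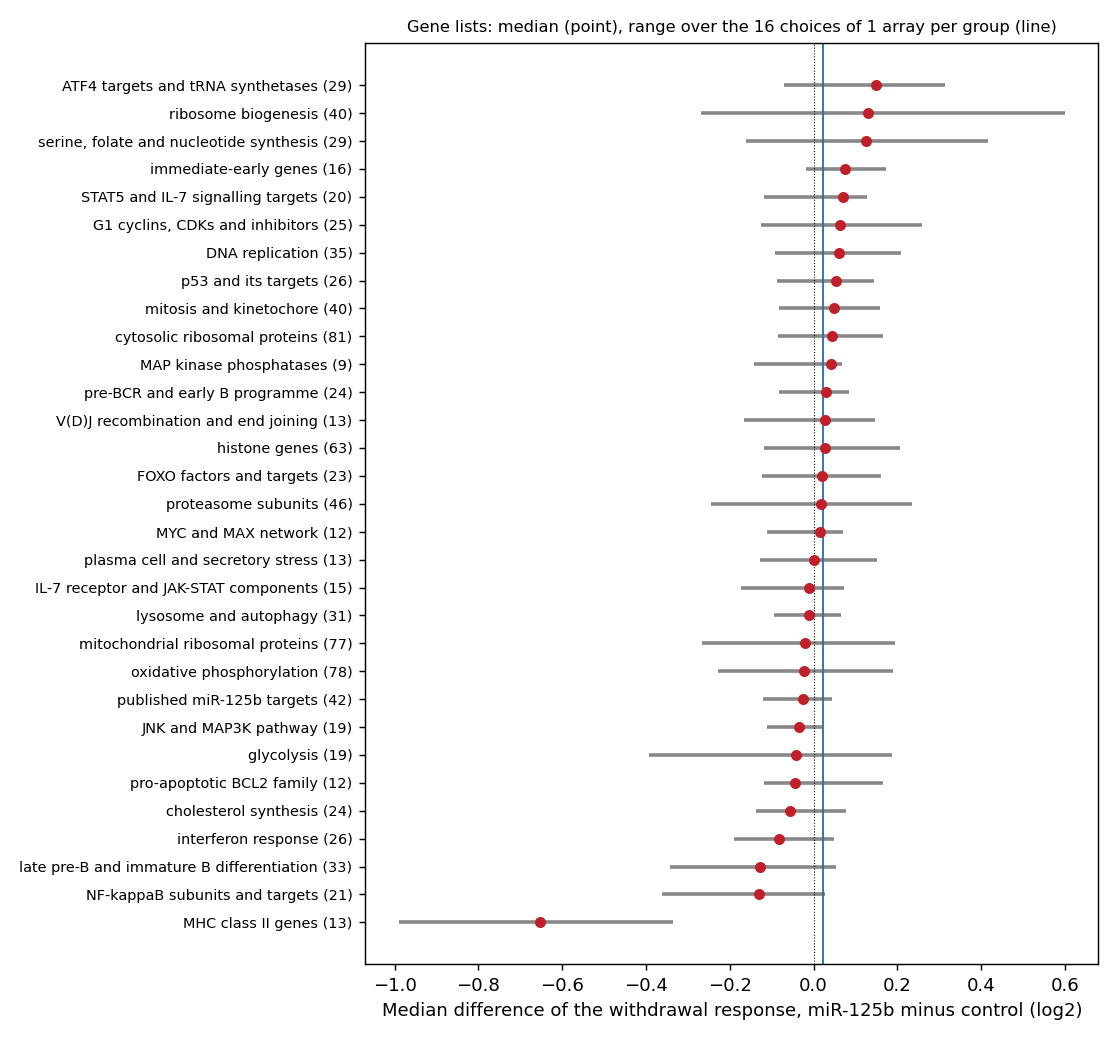
Median difference of the withdrawal response (log2, miR-125b minus control) over the measured genes of each list with at least 9 of them (point; number of genes in brackets), with the lowest and highest median over the 16 choices of 1 array per group (line); the blue line marks the median over all genes. The MHC class II list lies at -0.65 with a range wholly below 0, and the other lists lie between -0.13 and 0.15.

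Among the class II chains, H2-Eb1 read 2.39 and 2.80 in control cells with IL-7 and 3.03 and 3.41 without, but 3.14 and 2.82 in miR-125b cells with IL-7 and 2.44 and 2.20 without. Control arrays were higher without IL-7 and miR-125b arrays lower, with no overlap in either. The difference was -1.28 ± 0.30 (SE; limma unadjusted p = 0.00563, adjusted p = 0.569). H2-Aa read -1.95 and -1.41 in control cells with IL-7 and -0.69 and -0.21 without, and -1.26 and -1.75 and then -1.58 and -1.82 in miR-125b cells. It rose by 1.23 in control cells, and its miR-125b arrays with and without IL-7 overlapped (a step of -0.19), giving a difference of -1.42 ± 0.39. H2-Ab1, which pairs with H2-Aa, rose by 0.50 in control cells and stepped by -0.15 in miR-125b cells. Its difference was -0.65 ± 0.17, and its 2 probes gave -0.65 and -0.64.

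The invariant chain and the peptide loaders were also measured. Cd74, the invariant chain that escorts class II molecules, read -0.87 and -0.02 in control cells with IL-7 and 1.99 and 2.55 without, and -0.67 and -0.94 and then 0.32 and -0.11 in miR-125b cells. In each cell kind the arrays without IL-7 were above those with it, and the 2 control arrays without IL-7 stood above all others. Cd74 rose by 2.72 in control cells, and its step of 0.91 in miR-125b cells did not pass the test (adjusted p = 0.066). The difference was -1.81 ± 0.48 (limma unadjusted p = 0.0097, adjusted p = 0.615). H2-DMa and H2-DMb1 form the DM molecule that loads peptides. H2-DMa read -1.29 and -1.13 in control cells with IL-7 and -0.91 and -0.61 without, and -0.98 and -1.23 and then -1.51 and -1.70 in miR-125b cells. It rose by 0.45 in control cells and fell by 0.50 in miR-125b cells, 1 of the 15 genes with called responses in opposite directions. Both calls were close to the threshold (limma adjusted p = 0.0464 and 0.0353). H2-DMb1 read -2.12 and -1.86 in control cells with IL-7, -2.18 and -2.0 without, -1.47 and -1.89 in miR-125b cells with IL-7 and -3.21 and -3.65 without. The last 2 arrays were below the other 6, and the difference was -1.66 ± 0.30 (limma unadjusted p = 0.00156, adjusted p = 0.48). Its probe lies at chr17:34297109-34297168 (mm9, per the array's annotation).

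**Figure D4:**
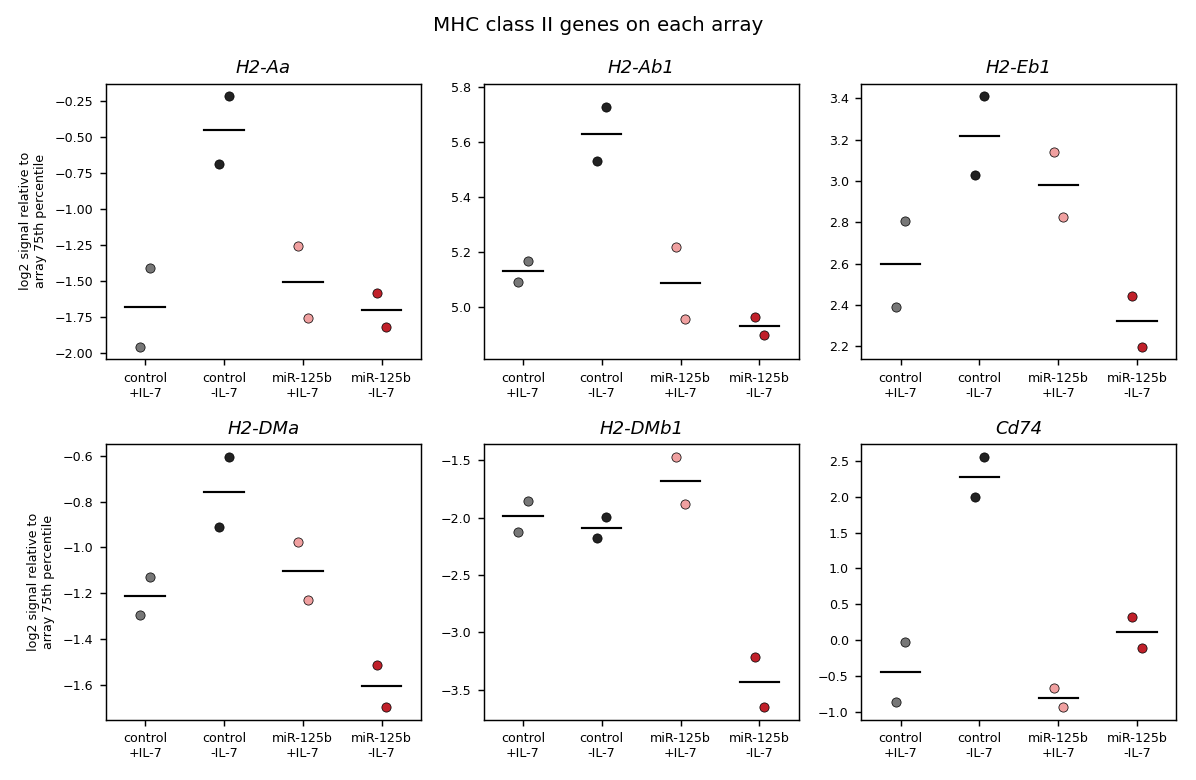
Level of 6 MHC class II genes on each array (points; log2 signal relative to the array's 75th percentile; each panel has its own scale), with the mean of the 2 arrays of a group as a bar. In all 6 panels both miR-125b arrays without IL-7 lie below both control arrays without IL-7, while the 2 groups with IL-7 overlap in all panels but that of H2-Eb1.

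The other class II genes varied. H2-Ob, a chain of the DO molecule that restrains DM in B cells, read 3.54 and 3.87 in control cells with IL-7 and 4.70 and 4.73 without, and 3.95 and 3.78 and then 4.84 and 4.66 in miR-125b cells. It rose in both, by 1.01 and 0.88. The partner chain H2-Oa rose by 0.72 in control cells and stepped by 0.34 in miR-125b cells, a difference of -0.38 ± 0.17. Rfx5, a subunit of the factor that binds class II promoters, rose by 0.97 and 0.96, and Rfxap and Rfxank had differences of -0.03 and -0.15. Ciita, the class II transactivator, had a difference of -1.03 with an interval of -3.07 to 1.01, and its miR-125b arrays with IL-7 read -3.72 and -1.99.

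The vectors were also compared within each IL-7 state, on 1 slide each. The median level in miR-125b minus control cells was 0.11 with IL-7, where 2 of 13 were called lower (1.46% of all genes), and -0.85 without IL-7, where 7 were called lower (3.49% of all genes) and none higher. Among myeloid markers, cells that could also carry class II, 4 of 13 on the array were above background on all 8 arrays, with Lyz2 on 2 arrays only. The summed linear level of that list, relative to the 75th percentile, was 11.8 to 14.6 in control cells with IL-7, 13.9 to 16.8 without, 12.6 to 12.9 in miR-125b cells with IL-7 and 16.2 to 16.9 without. In such a sum strong members such as Itgam (log2 group means of 3.32 to 3.54) weigh most. Of its 7 measured members, 2 rose and 1 fell in control cells (20% and 34.2% of all genes). In miR-125b cells 2 rose and 0 fell (20.3% and 32.1%). The part of myeloid cells in the class II result was not tested.

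Class II promoters share a conserved set of elements, one of which is the Y box. It was searched as CTGATTGG and as its core ATTGG on both strands of the 250 bases before each RefSeq start (GRCm38.p6). Each CTGATTGG contains an ATTGG. The longer form was in 4 of the 10 promoters found for 9 of the 13 genes (40%), against 3.83% of all 32851 promoters, and the core in 9 of 10 (90%), against 33.9%. The 6 windows below hold the elements of genes described above and H2-Eb2. They are written 5′ to 3′ on the gene's strand, and capitals mark CTGATTGG in the first 4 and ATTGG in H2-DMb1 and H2-Ob. They lie at chr17:34305747-34305866 (H2-Eb1), chr17:34287824-34287943 (H2-Aa, minus strand), chr17:34325555-34325674 (H2-Eb2), chr17:34092259-34092378 (H2-Oa), chr17:34153071-34153190 (H2-DMb1) and chr17:34238785-34238904 (H2-Ob), on the plus strand where none is given.

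H2-Eb1: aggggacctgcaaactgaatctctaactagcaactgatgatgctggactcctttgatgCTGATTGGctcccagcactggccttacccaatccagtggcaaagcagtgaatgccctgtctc

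H2-Aa: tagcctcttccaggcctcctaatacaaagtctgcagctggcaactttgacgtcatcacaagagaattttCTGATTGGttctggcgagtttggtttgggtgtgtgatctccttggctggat

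H2-Eb2: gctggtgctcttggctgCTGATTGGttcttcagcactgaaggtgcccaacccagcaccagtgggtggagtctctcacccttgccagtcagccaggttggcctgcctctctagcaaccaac

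H2-Oa: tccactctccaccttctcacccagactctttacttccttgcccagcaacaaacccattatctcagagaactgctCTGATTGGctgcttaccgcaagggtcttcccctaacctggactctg

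H2-DMb1: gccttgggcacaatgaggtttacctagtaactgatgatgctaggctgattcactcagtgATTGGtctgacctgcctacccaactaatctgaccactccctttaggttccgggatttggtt

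H2-Ob: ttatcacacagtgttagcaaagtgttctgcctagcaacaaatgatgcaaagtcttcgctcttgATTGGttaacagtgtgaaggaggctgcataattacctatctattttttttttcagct

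The capitals start 62 bases before the gene start in H2-Eb1, 51 in H2-Aa, 103 in H2-Eb2, 46 in H2-Oa, 61 in H2-DMb1 and 57 in H2-Ob. The motif was present both where the responses separated (H2-Eb1, H2-Aa) and where they did not (H2-Ob, for the core). These matches are descriptions of the sequence.

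NF-kappaB genes formed a list with a small negative median. NF-kappaB is a family of transcription factors that acts in B-cell survival and maturation and induces its own inhibitors. Of 21 measured genes of 26 listed, 16 had a difference below 0 and 6 were lower at an unadjusted p under 0.05, against 2.52% of all genes, with none higher and none called. The median difference was -0.13, with a range of -0.36 to 0.03 over choices of 1 array per group. It was -0.06 without miR-125b with IL-7 replicate 1 and -0.04 with scaling to the array median. The count of 6 was 3 without replicate 2 of control cells with IL-7, replicate 2 of control cells without it, or either miR-125b array without IL-7. Of the 21 genes, 11 rose in both cell kinds, against 16.2% of all genes.

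Among the subunits, Nfkb2, the precursor of p52, read 1.44 and 1.56 in control cells with IL-7 and 2.30 and 2.41 without, and 1.27 and 1.33 and then 1.57 and 1.47 in miR-125b cells. It rose by 0.85 in control cells; the step of 0.22 in miR-125b cells missed the threshold. The difference was -0.63 ± 0.12 (limma unadjusted p = 0.00242, adjusted p = 0.489). Relb, its partner, rose by 2.04 and 1.34, a difference of -0.70, but its 3 probes ran from -0.70 to 0.16. Nfkb1, the precursor of p50, had a difference of 0.02 (interval -0.20 to 0.24).

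Of the inhibitors, Nfkbid read 2.17 and 2.32 in control cells with IL-7 and 2.95 and 3.1 without, and 2.31 and 2.24 and then 2.27 and 2.44 in miR-125b cells. Only its control arrays separated by IL-7, and the difference was -0.71 ± 0.14. Nfkbie rose by 0.70 and 0.35, and Tnfaip3, which encodes A20, by 1.87 and 1.17. The difference of Nfkbia was -0.17 with an interval of -0.52 to 0.18. Of the other targets, Ltb, lymphotoxin beta, rose by 2.16 and 1.15, whereas Traf1 rose by 0.94 and 0.84.

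The list of late pre-B and immature B genes overlaps the class II list. Of 33 measured, 8 were lower at an unadjusted p under 0.05 (2.52% of all genes) and none higher (3.37% of all genes), and 5 of the 8 are class II genes. Without miR-125b with IL-7 replicate 1, 10 were lower and 3 higher, and the median difference was 0.01 in place of -0.13. The other 3 were surface proteins. Ly6d, a marker of B-lineage commitment, read 0.66 and 0.87 in control cells with IL-7 and 2.41 and 2.83 without, and -1.07 and -0.59 and then -0.06 and -0.10 in miR-125b cells. It rose in both, by 1.86 and 0.75, from a lower level in miR-125b cells, with a difference of -1.10 ± 0.29. Tnfrsf13c, the BAFF receptor, rose by 1.29 and 0.58, a difference of -0.71 ± 0.17. Cr2, complement receptor CD21, had -0.41, but -0.03 at its second probe.

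Rag1 and Rag2, the recombinase genes, rose in both cell kinds. Rag1 read 1.01 and 1.30 in control cells with IL-7 and 3.93 and 4.15 without, and 2.48 and 1.63 and then 4.18 and 4.32 in miR-125b cells. Rag2 read 0.99 and 0.94 in control cells with IL-7 and 2.82 and 3.07 without, and 2.65 and 1.84 and then 3.50 and 3.65 in miR-125b cells. For both genes the miR-125b arrays were the higher ones in each IL-7 state. Rag1 rose by 2.89 and 2.19 and Rag2 by 1.98 and 1.33, with differences of -0.69 ± 0.40 and -0.65 ± 0.37 that were not called (limma unadjusted p = 0.136 and 0.127). Both intervals, -1.68 to 0.29 and -1.56 to 0.25, include 0. The surrogate light chain genes Igll1 and Vpreb1 fell in both, with differences of 0.01 and 0.05. Foxo1, the factor released when IL-7 signalling stops, rose by 0.36 and 0.38, Il2ra by 1.57 and 1.78 and Prdm1 by 0.56 and 0.54. Irf8 did not pass the test in either cell kind, and Trp53 fell by 0.78 and 0.65.

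The IL-7 pathway gave a mixed picture. Of 20 STAT5 and IL-7 targets, 4 were lower at an unadjusted p under 0.05, against 2.52% of all genes, and 2 without control without IL-7 replicate 2. The median difference was 0.07, and it turned to -0.0073 without miR-125b with IL-7 replicate 2 and to -0.06 with normexp background correction. Socs3, a feedback inhibitor of JAK-STAT signalling, read -0.15 and -0.19 in control cells with IL-7 and 0.58 and 0.68 without, and -0.19 and -0.26 and then -0.01 and -0.25 in miR-125b cells. The 2 control arrays without IL-7 stood above the other 6, and the difference was -0.71 ± 0.14 (limma unadjusted p = 0.0029, adjusted p = 0.526). Mcl1, a survival protein, had -0.28 at one probe and -0.09 at another; Tnfrsf13c was the third, and Ccnd2 was not well above background in cells with IL-7. The receptor gene Il7r had a difference of 0.08 (-0.25 to 0.41), Pim1 of 0.17 and Pim2 of -0.27. Cish ranged from -2.73 to -0.63 among its arrays and its interval was -3.1 to 1.34.

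Of the 42 measured genes published as miR-125b targets, 4 were lower (2.52% of all genes) and 1 higher (3.37%) at an unadjusted p under 0.05, and the median difference was -0.02. The count of lower genes was 1 after omitting control with IL-7 replicate 2 or either array of miR-125b cells without IL-7. It was 2 after omitting either array of control cells without IL-7. The count of higher genes was 2 without replicate 1 of control cells with IL-7 or of control cells without it. Trp53inp1, Bmf and Irf4 were preserved, as described above. Bbc3, the BH3-only protein PUMA, read 1.44 and 1.33 in control cells with IL-7 and 2.10 and 2.28 without, and 1.47 and 1.60 and then 1.93 and 1.94 in miR-125b cells. It rose in both, by 0.80 and 0.40, a difference of -0.40 ± 0.13 (limma unadjusted p = 0.0252, adjusted p = 0.765). S1pr1, a receptor for egress from tissue, had 0.97 ± 0.18: it stepped by -0.16 in control cells and rose by 0.81 in miR-125b cells. The kinase gene Map3k11 fell by 0.39 and 0.40 from a lower level in miR-125b cells, and Bak1, a pro-apoptotic effector, fell by 0.30 and 0.57. Bcl2l11 and Bcl2 had differences of -0.12 and 0.08. Among 96 genes whose probe holds the seed match CTCAGGG the median difference was 0.02, as among the 20581 others. An unadjusted p under 0.05, in either direction, was found for 11 of the 96 (11.5%) and 1207 of the others (5.86%). Only the probe sequences were searched, not the rest of the messages, and whether targeting plays a part was not tested.

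The remaining named genes are those with a difference of at least 1 unit, a probe above background on all 8 arrays and the smallest unadjusted p; none was called. Differences of that size were found for 758 genes (3.67%), but 679 of them had a probe that was dim on at least 1 array. Only 79 of the 17038 genes measured on all arrays reached it (0.464%). The size of some named differences depended on the processing or on single arrays. Over the alternatives Slc2a6 ran from -1.77 to -0.68, S100a6 from -2.44 to -1.07, Dlgap3 from -1.39 to -0.40, Mdfi from -1.59 to -0.60 and 2310005E17Rik from 0.16 to 1.34. Others moved less, such as Vat1 (1.00 to 1.31) and Arhgef10l (-1.26 to -0.94).

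On the higher side, St3gal6, a sialyltransferase, read 2.72 and 2.53 in control cells with IL-7, 0.92 and 1.03 in control cells without it, 4.06 and 4.00 in miR-125b cells with IL-7 and 3.77 and 3.70 in miR-125b cells without it. The groups did not overlap: the gene was higher in miR-125b cells in both states and far less reduced after withdrawal. It fell by 1.65 in control and by 0.29 in miR-125b cells, and its difference of 1.36 ± 0.13 (interval 1.03 to 1.69) had the smallest p of the genes measured on all arrays (limma unadjusted p = 6.42e-05, adjusted p = 0.332). It was called with normexp and with a mean-variance trend. Its probe lies at chr16:58470722-58470781 (mm9). Vat1, a vesicle membrane protein gene (chr11:101320428-101320487), read -2.37 and -2.26 in control cells with IL-7 and -2.57 and -2.65 without, and -1.41 and -1.53 and then -0.64 and -0.45 in miR-125b cells. It fell by 0.29 in control cells and rose by 0.92 in miR-125b cells, a difference of 1.21 ± 0.14. Cd36, a fatty acid and scavenger receptor (chr5:17288600-17288659), read 0.57 and 0.70 in control cells with IL-7 and -0.44 and 0.09 without, and 0.69 and 0.88 and then 1.66 and 1.74 in miR-125b cells. It too changed in opposite directions, by -0.81 and 0.91.

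Htra3, a serine protease, fell by 0.97 in control cells and stepped by 0.12 in miR-125b cells. Prkcq, protein kinase C theta, stepped by -0.14 in control and rose by 1.36 in miR-125b cells. Gsn, the actin-severing protein gelsolin, read -1.01 and -1.05 in control cells with IL-7 and 2.14 and 2.10 without, and -1.47 and -2.57 and then 2.95 and 2.77 in miR-125b cells. It rose by 3.15 and by 4.88, and the 2 miR-125b arrays with IL-7 lay far apart. Adgrf1 rose by 1.87 and 2.94. The others on this side were 2310005E17Rik (1.08), Wdfy2 (1.02), Lypd6 (1.16) and 5730408K05Rik (1.26), the last 3 with intervals that include 0.

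On the lower side, Slc2a6, a hexose transporter gene (chr2:26876891-26876950), read -3.99 and -4.17 in control cells with IL-7 and -2.58 and -2.40 without, and -3.15 and -2.83 and then -2.90 and -3.09 in miR-125b cells. It rose by 1.59 in control cells, and its miR-125b arrays overlapped across the 2 states. S100a6, a calcium-binding protein gene (chr3:90418160-90418219), read -3.47 and -3.81 in control cells with IL-7 and -3.32 and -3.21 without, and -1.43 and -1.92 and then -3.74 and -3.23 in miR-125b cells. The 2 miR-125b arrays with IL-7 stood above the other 6, and the fall of 1.81 in miR-125b cells set against a step of 0.37 gave -2.19 ± 0.34. Itgb3, integrin beta 3 (chr11:104531672-104531731), read -4.03 and -3.54 in control cells with IL-7 and -0.03 and 0.38 without, and -3.93 and -4.44 and then -2.09 and -2.16 in miR-125b cells. It rose by 3.96 and 2.06, a difference of -1.90 ± 0.35, but its second probe gave -0.15. It was called with normexp.

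Maf, a transcription factor gene, rose by 0.90 in control cells and stepped by -0.53 in miR-125b cells, a difference of -1.42 ± 0.30. Mdfi, an inhibitor of MyoD family factors, rose by 1.21 and stepped by -0.13. Arhgef10l, a guanine nucleotide exchange factor gene, rose by 0.71 and stepped by -0.39, and Dlgap3 rose by 0.83 and stepped by -0.37. Gm5481 (-1.18), Gm12758 (-1.24), Dcaf12l2 (-1.44), Snhg20 (-1.25) and H2-DMb1 complete the 12 on this side.

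**Figure D5:**
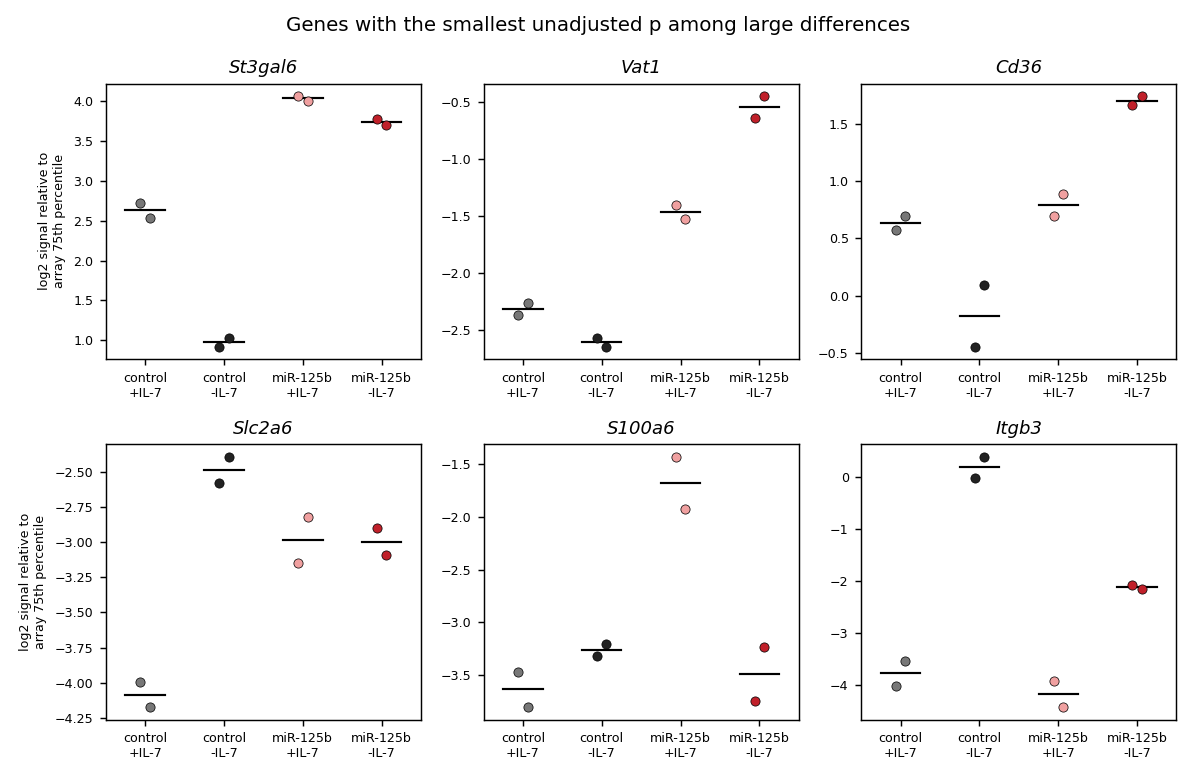
Level of 6 genes of the rule above on each array (points; log2 signal relative to the array's 75th percentile; each panel has its own scale), 3 with a higher (top row) and 3 with a lower miR-125b response (bottom row), with the mean of the 2 arrays of a group as a bar. St3gal6 fell in control cells and held its level more closely in miR-125b cells, and Itgb3 rose further in control cells; none of the 6 differences was called.

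Single genes of other lists also reached an unadjusted p under 0.05. Neu1, a lysosomal sialidase gene, read 3.62 and 3.47 in control cells with IL-7 and 3.99 and 4.08 without, and 2.82 and 3.07 and then 2.65 and 2.60 in miR-125b cells, a difference of -0.82 ± 0.16. Its list of 31 lysosome and autophagy genes had a median of -0.01. Jun, a subunit of AP-1, rose by 1.51 and 1.08, and Dusp16, a JNK phosphatase gene, by 1.58 and 1.09. Tob1, an antiproliferative FOXO target, rose by 0.75 in control cells and stepped by 0.13 in miR-125b cells, and Irf1, an interferon regulatory factor, rose by 0.53 and 0.23. The median of the FOXO list was 0.02, of the interferon list -0.08 and of the p53 list 0.05.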

How the data were processed

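RNA from 8 cultures was hybridised to single-colour (Cy3) Agilent 60-mer arrays, 100 ng per sample per the labels' protocols. The deposited scanner files hold processed spot signals as linear intensity, already background-subtracted per the file headers but without scaling across arrays, together with background flags as other values. Feature Extraction 10.7.1.1 is named in the submitters' processing notes; in the file headers the IL-7 arrays carry 10.7.3.1. The deposited series table holds the authors' intensity values, with a median of 21.7 on each array; how they were scaled is not given in the sources used here, and the table served as an alternative.

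Control spots were removed, spots of a probe averaged, and log2 values scaled to each array's 75th percentile. Of 55681 probes, 58 were dropped as non-uniform and 29811 kept because 1 or more groups had both of its arrays flagged as well above background. A gene was represented by its kept probe with the highest mean (20677 genes, 13741 with a symbol through RefSeq's gene table). One limma 3.58.1 fit (R 4.3.3) with a mean per group gave all contrasts, with 4 residual degrees of freedom and Benjamini-Hochberg adjusted p under 0.05 as the threshold for a call. A gene is said to have risen, fallen or changed only where its response in that cell kind was called. The script was tested on simulated data.

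Named genes were up to 12 in each direction by smallest unadjusted p among differences of at least 1 unit, the member of each list with the smallest unadjusted p, the 10 highest and 10 lowest preserved responses and a fixed set; other list members were named after their values were seen. The rule, the genes and the lists were chosen with earlier results of these data known. Other normalizations, background correction, filters, variance priors, probe rules, a replicate block and each array left out were tried. The deviations of same-numbered arrays correlated between groups at -0.098 to 0.113. Such values do not settle whether same-numbered arrays share a clone, and the main fit did not pair them. No columns of other series were among the files (0). Some genes are not reported here.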

Additional observations from a re-analysis of the deposited data

How the results depend on the processing

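The count of called differences was 0 as reported and stayed at 0 without the filter for dim spots, with the stricter filter that needs all 8 arrays, with a robust prior, with probes of a gene averaged and at an adjusted p under 0.1. It was 1 with scaling to the array median (Tmem139), 1 with quantile normalization and 1 with the deposited table (Kcnmb1 in both), 1 with a mean-variance trend (St3gal6) and 6 with normexp (AV274098, Gm5481, Itgb3, Mcoln2, Pik3r3 and St3gal6). Blunted responses were then 4 with normexp and 1 with the trend, and enhanced responses 1 each with quantile normalization, normexp and the deposited table. Leaving out 1 array gave 0 to 3 called genes, 0 blunted and 0 to 1 enhanced: 1 without miR-125b with IL-7 replicate 1 and 3 without miR-125b without IL-7 replicate 1. The cause was not tested. St3gal6 had differences of 1.26 to 1.45 in all alternatives, with adjusted p (limma) of 0.017 to 0.577. Tmem139, with the smallest adjusted p as reported (limma, 0.149), had a probe above background on 2 of 8 arrays.

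Preserved responses numbered 38 with the interval within 0.25 times the response and 1342 within 0.75 times, which follows from the rule, and 482 to 756 under the other settings that kept all arrays. Similar counts did not mean the same genes. The number shared with the 591 as reported was 360 with normexp and 424 with scaling to the array median. It was 428 with the deposited table and 434 with quantile normalization. Leaving out 1 array gave 382 to 667, with 382 without control without IL-7 replicate 1, 391 without its replicate 2 and 392 without miR-125b without IL-7 replicate 1. Of the 44 preserved genes followed singly, 30 to 44 stayed preserved under the settings that kept all arrays, and none changed direction in any setting. Their sizes did shrink in some. The smallest mean response among them was 1.04 as reported, 0.00126 with normexp, 0.557 with quantile normalization and 0.549 with the deposited table. The overall size over rising genes ran from -0.18 to 0.12 with 1 array left out. A fit with the replicate number as a block called 0 genes in the difference, 0 blunted and 0 enhanced. It found 576 preserved and changed no call in the difference. Whether the numbers pair the arrays was not settled.

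Small differences changed sign. With scaling to the array median, under which the median over all genes was 0.11 in place of 0.02, they were Irf8 0.0039, Map3k11 0.075, Prdm1 0.065, Rfx5 0.080, Rfxap 0.059. With normexp they were Bcl2 -0.00046, Igll1 -0.053. With 1 array left out, the genes that changed sign had these ranges: 5730408K05Rik -0.00097 to 2.51, Bcl2 -0.096 to 0.26, Bcl2l11 -0.36 to 0.12, Cish -1.84 to 0.082, Foxo1 -0.045 to 0.085, H2-Ob -0.29 to 0.040, Igll1 -0.018 to 0.040, Il2ra -0.26 to 0.68, Il7r -0.025 to 0.19, Map3k11 -0.068 to 0.041, Prdm1 -0.16 to 0.11, Rfx5 -0.19 to 0.18, Rfxap -0.13 to 0.071, Socs2 -0.31 to 0.015, Traf1 -0.26 to 0.057, Trp53 -0.083 to 0.35, Vpreb1 -0.032 to 0.13. Depth in reads does not apply to arrays; 2 per group and dim probes limit precision, with a median half-width of the interval of 0.37 for genes above background on all arrays and 1.18 for the others.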
